A study of Mus musculus with 12 samples.

Results

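The OAS family encodes the 2′-5′-oligoadenylate synthetases and their relatives, proteins that sense double-stranded RNA, and 8 of its mouse genes are described here: *Oas1a*, *Oas1b*, *Oas1c*, *Oas1g*, *Oas2*, *Oas3*, *Oasl1* and *Oasl2*. The 8 genes were chosen from their measured values, since the family was picked with the RNA-seq readout of these cells known. Their RNA-seq contrast is therefore given as a description with no test. They are 8 of the 25860 genes listed in the RNA-seq table, and 6 of the 23932 ATAC-seq peaks listed by the authors carried the name of a member.

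The data came from CD8+ T_prog_ cells, the stem-like progenitors of the autoimmune CD8+ response, sorted from pancreatic lymph nodes of nonobese diabetic (NOD) mice. The comparison asked which transcripts and which open chromatin regions differ when these cells lack UTX, a chromatin regulator encoded by the X-linked gene *Kdm6a*. The genotypes were *NOD-TCR 8.3 WT*, called WT here, and *NOD-TCR 8.3 UTX TCD*, called *UTX TCD*, each with 3 RNA-seq and 3 ATAC-seq libraries. Mice of both genotypes carried the 8.3 T cell receptor transgene, whose product recognizes the β cell antigen IGRP, on the NOD background. The *UTX TCD* mice had floxed *Kdm6a* alleles and an *LckCre* transgene, made on the B6 background and backcrossed to NOD, so that deletion depended on the T lineage activity of the *Lck* promoter. The study gives Cre-negative littermates as its WT controls. The labels call the second genotype UTX_knockout for RNA-seq and UTX_knock for ATAC-seq, and give neither age nor sex. The methods of the study state that all its mice were female. The series describes the sort gate as Ly108+ without CXCR6, whereas the methods of the study give Ly108+CD39-. Reads from NOD mice were aligned to the C57BL/6 reference mm10, and NOD alleles of the OAS genes were not examined.

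The WT libraries held 146456724, 144503203 and 193568919 counted reads, and the *UTX TCD* libraries held 61512402, 175462433 and 187275082. The deposited RNA-seq values were normalized counts, that is, reads per gene divided by 1 size factor per library. Of the genes listed, 14459 averaged 10 or more normalized counts across all 6 libraries, and these were fitted with limma on log2(normalized count + 1), and log2 fold changes are *UTX TCD* over WT with their standard error (SE). Genes outside the family were called higher or lower when the p adjusted by Benjamini-Hochberg was under 0.05 and the log2 fold change passed 0.5 in size. These limits called 1518 genes higher (10.5%) and 1020 lower (7.05%), and the median log2 fold change of all genes tested was -0.0002. A single gene in 3 libraries against 3 allows no two-sided exact permutation p below 0.1.

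*Kdm6a* (chrX:18160862-18279936) had normalized counts of 28365, 28949 and 29172 in WT and 24159, 24792 and 24579 in *UTX TCD* libraries. The groups did not overlap, and its log2 fold change of -0.23 (SE 0.04, limma adjusted p = 0.00114) did not pass 0.5. A count over the whole gene does not resolve the floxed exons. *Cd8a* had normalized counts of 272448, 270012 and 274004 in WT and 311527, 313000 and 270975 in *UTX TCD* libraries. *Slamf6*, which encodes Ly108, had 27732, 34096 and 23305 in WT and 36665, 30980 and 35425 in *UTX TCD* libraries. *Cd8a* and *Slamf6* were abundant in all 6 libraries, with overlapping groups (log2 fold change 0.13 and 0.29), as was *Tcf7* (-0.07). The other CD8 chain, *Cd8b1*, was lower with no overlap (-0.37, limma adjusted p = 0.00634), as was *Cd3d* (-0.28, limma adjusted p = 0.00485), and *Cd3e* (0.17, limma adjusted p = 0.0414) and *Cd44* (0.17, limma adjusted p = 0.0322) were higher with no overlap, but none of the 4 passed 0.5. *Entpd1*, which encodes CD39, did not exceed 29.6 in any library. *Cxcr6* had normalized counts of 12757, 9619 and 13724 in WT and 5286, 5994 and 5695 in *UTX TCD* libraries. It was the only gene called among the 10 sort and T cell markers, and it fell by 1.07 on the log2 scale (SE 0.12, limma adjusted p = 0.000131), lower in 3 of 3 *UTX TCD* libraries than in any WT library.

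OAS proteins bind double-stranded RNA and, when active, join ATP into short chains linked from the 2′ to the 5′ position, known as 2-5A. 2-5A is a messenger of antiviral defence that leads to cleavage of viral and host RNA, and 2′-phosphodiesterases break it down. The genes are classic targets of type I and type III interferon, through a complex that holds STAT2 and IRF9, and lymphocytes carry them at a basal level. Members differ in role: some are active synthetases, whereas others lack or have lost the activity, and the OAS-like proteins end in ubiquitin-like domains.

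Among the members with synthetase activity, *Oas2* (chr5:120730333-120749886, minus strand) had normalized counts of 5598, 4162 and 6080 in WT libraries and 30477, 30949 and 29978 in *UTX TCD* libraries. The *UTX TCD* libraries lay close together and far above all 3 WT libraries, of which WT 2 was the lowest. Its mean was 5.77-fold higher, with a log2 fold change of 2.55 (SE 0.12). *Oas3* (chr5:120753098-120777684, minus strand), the longest synthetase of the family, had normalized counts of 13046, 11860 and 14167 in WT and 26165, 27948 and 24919 in *UTX TCD* libraries. The groups did not overlap and WT 2 was again the lowest library. Its mean was 2.02-fold higher, a log2 fold change of 1.02 (SE 0.07).

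*Oas1a* (chr5:120896256-120907544, minus strand), regarded as the mouse counterpart of human *OAS1*, had normalized counts of 248, 237 and 250 in WT and 1759, 1760 and 2117 in *UTX TCD* libraries. The 3 WT libraries were almost level, and each *UTX TCD* library stood far above them. The mean was 7.67-fold higher, a log2 fold change of 2.93 (SE 0.10). *Oas1g* (chr5:120876142-120887613, minus strand) is its nearest copy and was barely detected: it had normalized counts of 0, 1.97 and 0.763 in WT, from 0, 2 and 1 reads. In *UTX TCD* libraries it had 6.75, 48.0 and 14.7, from 3, 60 and 20 reads. The groups did not overlap, but the *UTX TCD* value rested largely on UTX TCD 2. *Oas1g* passed the filter on low values only through the *UTX TCD* libraries, and without UTX TCD 2 it did not pass. Its fitted log2 fold change of 3.39 (SE 0.76) depended on the pseudocount and was 1.98 with a pseudocount of 5.

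Reads of *Oas1a* and *Oas1g* can be hard to assign. The reference transcripts of *Oas1a* and *Oas1g* were identical at 97.5% of 1889 aligned bases, and 57.4% of the 50-base stretches of *Oas1a* and 52.9% of those of *Oas1g* also occurred in another transcript of the family. The same share was 10.2% for *Oas1c*, 1.34% for *Oas1b* and 0 for *Oas2*, *Oas3*, *Oasl1* and *Oasl2*. How the authors counted reads that map to several places is not given in the sources used here. No member's span overlapped another RefSeq gene.

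*Oas1b* (chr5:120812635-120824163, plus strand) is annotated as a transcribed pseudogene in the C57BL/6 reference, where a premature stop codon truncates a protein linked to flavivirus resistance. It had normalized counts of 6105, 5922 and 5801 in WT and 11452, 11130 and 9276 in *UTX TCD* libraries. The groups did not overlap, and UTX TCD 3 was the lowest of its group. The mean was 1.79-fold higher, a log2 fold change of 0.83 (SE 0.08). *Oas1c* (chr5:120800194-120812540, minus strand), a further *Oas1* paralog, had normalized counts of 2818, 2563 and 2998 in WT and 3774, 4055 and 3810 in *UTX TCD* libraries. It showed the narrowest gap between the groups on the log2 scale, and the groups still did not overlap. Its mean was 1.39-fold higher, and its log2 fold change of 0.48 (SE 0.07) lay below 0.5, but above it with libraries scaled to the same sum (0.54) or without WT 3 (0.53).

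The OAS-like genes lie together some distance away on the same chromosome. *Oasl1* (chr5:114923143-114937911, plus strand) encodes a protein without synthetase activity that is known to hold back translation of *Irf7* mRNA. It had normalized counts of 1019, 992 and 1010 in WT and 6732, 6885 and 5860 in *UTX TCD* libraries. WT libraries were nearly level, and the lowest *UTX TCD* library was UTX TCD 3. The mean was 6.45-fold higher, a log2 fold change of 2.68 (SE 0.07). *Oasl2* (chr5:114896926-114912245, plus strand), which keeps synthetase activity in mice, had normalized counts of 2940, 1743 and 2998 in WT and 14297, 13660 and 10546 in *UTX TCD* libraries. The groups did not overlap, although WT 2 and UTX TCD 3 stood below the rest of their groups. The mean was 5.01-fold higher, a log2 fold change of 2.36 (SE 0.20).

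In all 8 members every *UTX TCD* library was above every WT library, which held for 25.8% of all genes tested. Nothing can be read from this count, since the members were chosen on this contrast. Leaving out *Oas1g*, the log2 fold changes fell into a lower group of *Oas1c*, *Oas1b* and *Oas3*, from 0.48 to 1.02, and a higher group. The higher group held *Oasl2*, *Oas2*, *Oasl1* and *Oas1a*, from 2.36 to 2.93. *Oas1g* was placed in neither group, because its fitted value depended on the pseudocount.

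**Figure D1:**
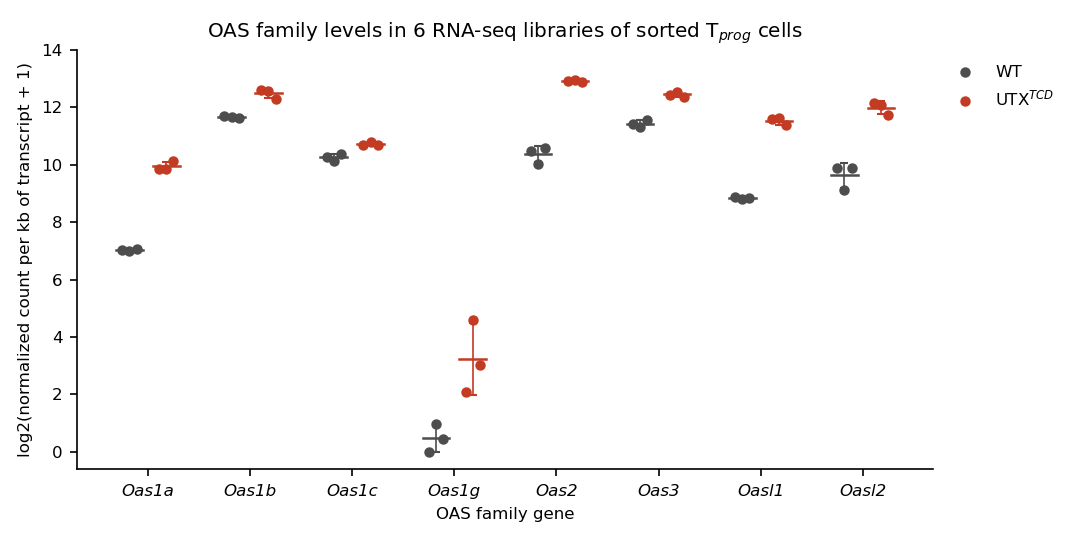
Level of each OAS gene in each of the 6 RNA-seq libraries, on the vertical axis as log2 of the normalized count per kb of transcript plus 1. Points are libraries, long bars the mean and short bars the SD of the log2 values (n = 3), and in all 8 genes the 3 *UTX TCD* points lie above the 3 WT points.

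Levels were compared between members per kb of the longest curated RefSeq transcript. In WT cells *Oas1b* had the highest mean level, 3230 ± 83.3 normalized counts per kb (SD, n = 3), followed by *Oas3* at 2761 ± 244. *Oas2* at 1334 ± 252 and *Oas1c* at 1222 ± 95.6 came next and overlapped. *Oasl2* at 816 ± 226, *Oasl1* at 458 ± 6.28, *Oas1a* at 130 ± 3.71 and *Oas1g* at 0.441 ± 0.481 completed the order. Apart from *Oas2* and *Oas1c*, neighbours in the WT order did not overlap between libraries.

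The order differed in *UTX TCD* cells. There *Oas2* led at 7700 ± 123 normalized counts per kb, and *Oas1b* at 5771 ± 638 and *Oas3* at 5584 ± 323 overlapped behind it. *Oasl2* at 4093 ± 640, *Oasl1* at 2950 ± 251, *Oas1c* at 1697 ± 66.8, *Oas1a* at 995 ± 109 and *Oas1g* at 11.2 ± 10.6 followed with no overlap between neighbours. Summed over the 8 members, the level per kb was 10262, 9038 and 10551 in WT libraries and 29675, 30007 and 26719 in *UTX TCD* libraries, a 2.89-fold higher mean. The share of *Oas2* in that sum was 13.3 ± 1.51% in WT and 26.8 ± 1.35% in *UTX TCD* cells. The share of *Oas1b* was 32.6 ± 2.87% in WT and 20.0 ± 1.06% in *UTX TCD* cells. *Oas2* thus took a larger and *Oas1b* a smaller part of the family's transcripts per kb in *UTX TCD* cells, with no overlap between the groups.

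Within each genotype, 1 library was low for most members. WT 2 lay below its group mean for 7 of the 7 members with a mean normalized count over 100 in WT, by most for *Oasl2*, at -0.51 on the log2 scale. UTX TCD 3 lay below its group mean for 6 of these 7, again by most for *Oasl2*, at -0.27, while the highest member, *Oas1a*, lay above it at 0.18. In the other 4 libraries, 0 of the 7 in WT 1, 1 in WT 3, 3 in UTX TCD 1 and 1 in UTX TCD 2 lay below. The 24 other interferon-stimulated genes listed for this work had medians of -0.15 in WT 2 and -0.14 in UTX TCD 3 on the same scale, beside -0.0029 and 0.0026 over all genes tested.

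The gene lists below were chosen with earlier results of these data known, so their counts are descriptions. Over all genes tested, 10.5% were called higher and 7.05% lower. Of the 5 partners of the 2-5A pathway tested, 1 was called higher and 1 lower, with a median log2 fold change of 0.03. *Akap7*, of which some isoforms degrade 2-5A, had normalized counts of 336, 329 and 334 in WT and 668, 671 and 652 in *UTX TCD* libraries. It rose by 0.99 on the log2 scale (SE 0.10, limma adjusted p = 6.52e-05), higher in 3 of 3 *UTX TCD* libraries than in any WT library. *Enpp1*, an ectoenzyme that hydrolyses 2-5A and other nucleotides, had 2119, 2280 and 1849 in WT and 497, 537 and 699 in *UTX TCD* libraries. It fell by 1.86 on the log2 scale (SE 0.13, limma adjusted p = 1.38e-05), lower in 3 of 3 *UTX TCD* libraries. The log2 fold change was -0.12 for *Abce1*, which encodes an ABC protein that also acts in ribosome recycling (limma adjusted p = 0.140), and 0.03 for *Pde12*, which encodes a further 2-5A phosphodiesterase (limma adjusted p = 0.696).

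Of the other *Oas1* paralogs, *Oas1d*, *Oas1f* and *Oas1h* were below the filter, with under 3 normalized counts in every library. *Oas1e* had normalized counts of 17.8, 6.91 and 13.7 in WT and 27.0, 29.6 and 32.4 in *UTX TCD* libraries. The groups did not overlap at these low counts, and *Oas1e* was called higher (log2 fold change 1.24, SE 0.39, limma adjusted p = 0.0325). The call was lost with no filter on low values and in DESeq2 (adjusted p 0.0542 and 0.0770) and without WT 2, WT 3, UTX TCD 1, UTX TCD 2 or UTX TCD 3, where the adjusted p was 0.0690, 0.0563, 0.0593, 0.0855 and 0.0746.

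Upstream of the family, 17 of the 21 interferon ligand genes listed had no read in any library. Only *Ifng* and *Ifnk* passed the filter, and limma called 0 of the 2, with 0 at an unadjusted p under 0.05 and 0 called by edgeR or DESeq2. *Ifng* had normalized counts of 10.9, 20.7 and 32.8 in WT and 6.75, 10.4 and 31.7 in *UTX TCD* libraries. These groups overlapped, with a log2 fold change of -0.53 (SE 0.60, limma adjusted p = 0.513). *Ifnk* had a log2 fold change of -0.46 (SE 0.45, limma adjusted p = 0.454), also with overlap. Messenger RNA of these cells does not report ligand made elsewhere.

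Of the 8 interferon receptor and kinase genes tested, 2 were called, both lower, with a median log2 fold change of -0.19. *Ifngr1*, the ligand-binding chain of the interferon-γ receptor, had normalized counts of 18521, 21610 and 19169 in WT and 9416, 9684 and 11133 in *UTX TCD* libraries. It fell by 0.97 on the log2 scale (SE 0.08, limma adjusted p = 2.14e-05), lower in 3 of 3 *UTX TCD* libraries. Its partner chain *Ifngr2* had 8573, 8018 and 8883 in WT and 5896, 6330 and 5490 in *UTX TCD* libraries. *Ifngr2* fell by 0.53 (SE 0.06, limma adjusted p = 0.000232), lower in 3 of 3 *UTX TCD* libraries, and its log2 fold change no longer passed 0.5 without WT 3 (-0.49), without UTX TCD 3 (-0.47) or with libraries scaled to the same sum (-0.46). For the type I receptor, the log2 fold change was -0.30 for *Ifnar1* (limma adjusted p = 0.000377), with no overlap between groups, and -0.03 for *Ifnar2* (limma adjusted p = 0.730), with overlap. *Il10rb* had a log2 fold change of -0.47 (limma adjusted p = 5.43e-05), with no overlap between groups, and did not pass 0.5. The kinases *Jak1*, *Jak2* and *Tyk2* had log2 fold changes of 0.11, 0.24 and -0.07.

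Of the 10 STAT and IRF genes, 4 were called, each higher, with a median log2 fold change of 0.43. *Irf9* had normalized counts of 21772, 20964 and 22522 in WT and 28068, 29936 and 26445 in *UTX TCD* libraries, a log2 fold change of 0.37 (SE 0.05, limma adjusted p = 0.000662). Its libraries did not overlap between the genotypes, and the log2 fold change did not pass 0.5. *Stat2*, a partner of IRF9 in that complex, had 17119, 16095 and 17406 in WT and 33934, 34072 and 27645 in *UTX TCD* libraries. It rose by 0.91 (SE 0.08, limma adjusted p = 3.53e-05), higher in 3 of 3 *UTX TCD* libraries. *Irf7*, itself induced by interferon, had 15322, 12369 and 16108 in WT and 36053, 38041 and 35925 in *UTX TCD* libraries. It rose by 1.34 (SE 0.09, limma adjusted p = 8.1e-06), higher in 3 of 3 *UTX TCD* libraries. *Irf5* rose by 1.12 (limma adjusted p = 0.00109), and *Irf4* by 0.62 (limma adjusted p = 0.0212), each in 3 of 3 *UTX TCD* libraries. The *Irf4* call was lost in DESeq2 (adjusted p = 0.0658) and without WT 1, WT 3 or UTX TCD 3, with an adjusted p of 0.0740, 0.0662 and 0.0731.

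Among inhibitors of interferon signalling, 4 of 9 were called, each higher, with a median log2 fold change of 0.02. *Usp18*, which binds the type I receptor and removes ISG15 from proteins, had normalized counts of 4520, 3652 and 3886 in WT and 17460, 15954 and 11632 in *UTX TCD* libraries. It rose by 1.89 on the log2 scale (SE 0.14, limma adjusted p = 1.51e-05), higher in 3 of 3 *UTX TCD* libraries. *Isg15*, which encodes the ubiquitin-like modifier that stabilizes human USP18, had 2357, 2068 and 2650 in WT and 8491, 9299 and 7065 in *UTX TCD* libraries. It rose by 1.81 (SE 0.11, limma adjusted p = 6.11e-06), with no overlap between groups. *Socs1* rose by 0.66 (limma adjusted p = 0.000154) and *Socs3* by 0.76 (limma adjusted p = 0.000731), each in 3 of 3 *UTX TCD* libraries.

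Of the 8 other double-stranded RNA sensor genes tested, 6 were called, each higher, with a median log2 fold change of 1.18. The share called higher over all genes tested was 10.5%. *Tlr3*, the endosomal sensor, had normalized counts of 18.8, 19.7 and 18.3 in WT and 524, 449 and 464 in *UTX TCD* libraries. It rose by 4.59 on the log2 scale (SE 0.18, limma adjusted p = 2.96e-07), higher in 3 of 3 *UTX TCD* libraries. *Eif2ak2*, which encodes PKR, had 3216, 2882 and 3335 in WT and 10892, 11328 and 8918 in *UTX TCD* libraries, and it rose by 1.72 (SE 0.09, limma adjusted p = 2.53e-06). The other calls were *Ifih1*, *Dhx58*, *Zbp1* and *Rigi*, with log2 fold changes of 1.71, 1.58, 0.77 and 0.66 and no overlap between groups. The log2 fold change of *Adar*, whose product edits double-stranded RNA, was 0.44 (limma adjusted p = 0.002) and passed 0.5 without WT 3 (0.51) or with libraries scaled to the same sum (0.51).

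Of 24 other interferon-stimulated genes, 22 were called, each higher, with a median log2 fold change of 1.17. Over all genes tested, 10.5% were called higher and the median was -0.0002. This list too was chosen with earlier results of these data known, so the count is a description. The largest called changes were those of *Ifi44*, *Mx1*, *Rsad2*, *Ifit3b* and *Ifit3*, at 3.74, 3.15, 3.08, 2.98 and 2.58. *Mx1*, annotated like *Oas1b* as a transcribed pseudogene in the C57BL/6 reference, had normalized counts of 2231, 1886 and 2316 in WT and 20089, 21095 and 15949 in *UTX TCD* libraries (SE 0.11, limma adjusted p = 1.83e-07). *Rsad2*, which encodes viperin, had 1204, 1185 and 1237 in WT and 11386, 11769 and 8048 in *UTX TCD* libraries (SE 0.13, limma adjusted p = 4.75e-07). In both genes all 3 *UTX TCD* libraries were above all WT libraries, with UTX TCD 3 the lowest of its group. *Ifi44* had 38.6, 45.4 and 28.2 in WT and 319, 362 and 1106 in *UTX TCD* libraries (SE 0.43, limma adjusted p = 0.000175). UTX TCD 3 was there the highest library, and the first place of *Ifi44* among these changes rested on it.

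**Figure D2:**
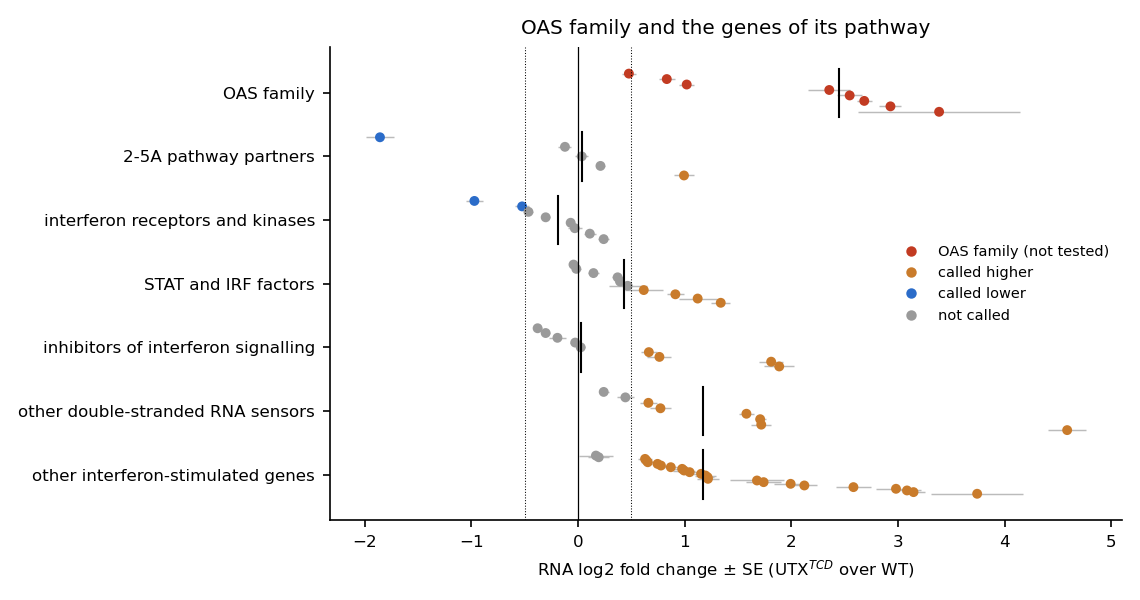
RNA log2 fold change (*UTX TCD* over WT, horizontal axis) of the 8 OAS genes and of the genes of 6 pathway lists, with grey bars for the SE, black bars for the median of each list and dotted lines at the limit of 0.5 in each direction. The 22 interferon-stimulated genes called lie to the right, whereas the 2 interferon receptor genes called, *Ifngr1* and *Ifngr2*, lie to the left.

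Genes of other cell types were counted beside these results. Of 5 B cell markers tested, *Cd79b* was called lower (log2 fold change -1.98, limma adjusted p = 1.47e-05) and *Ms4a1* higher (1.72, limma adjusted p = 0.0367), and the list, led by *Cd79b*, summed to 2964, 2447 and 2810 normalized counts in WT and 1228, 1098 and 1076 in *UTX TCD* libraries. The *Ms4a1* call was lost without WT 1, WT 3, UTX TCD 2 or UTX TCD 3 (adjusted p 0.119, 0.0894, 0.0682 and 0.112), and *Pax5* was below the filter. Of 4 myeloid markers tested, *Csf1r* was called lower (-1.85, limma adjusted p = 0.00496), and the list, led by *Cd68*, summed to 1055, 1114 and 866 in WT and 1386, 1121 and 1606 in *UTX TCD* libraries, with *Adgre1*, *Cd14* and *Fcgr1* below the filter. *Cd68* (0.43, limma adjusted p = 0.0377) and *Cd74* (0.57, limma adjusted p = 0.0813) were not called by limma, although every *UTX TCD* library was above every WT library. *Cd68* passed both limits without UTX TCD 2 (0.57, adjusted p = 0.0141), and *Cd74* passed them in DESeq2 (0.64, adjusted p = 0.0189). The plasmacytoid dendritic cell marker *Siglech* was below the filter, with 1.98, 8.89 and 0.763 in WT and 2.25, 0.801 and 0 in *UTX TCD* libraries.

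Of the 4 plasmacytoid dendritic cell markers tested, *Tcf4*, also a T cell gene, was called higher (log2 fold change 0.92, limma adjusted p = 0.00144). *Spib* (0.78, limma adjusted p = 0.114) and *Ly6d* (0.86, limma adjusted p = 0.157) were higher with overlap between groups. *Ccr9* was lower with no overlap (-0.32, limma adjusted p = 0.0562), and the median of the 4 was 0.82. The list, nearly all of it *Ccr9*, summed to 85882, 103898 and 85601 in WT and 81525, 81715 and 61221 in *UTX TCD* libraries. Of 3 NK cell markers tested, *Eomes*, which CD8+ T cells also express and which led the list, was called higher (0.62, limma adjusted p = 0.00388) and *Gzma* lower (-1.06, limma adjusted p = 0.00104), and the list summed to 13640, 15565 and 13404 in WT and 19217, 19182 and 26970 in *UTX TCD* libraries. The *Eomes* call was lost without UTX TCD 3 (0.46), and *Ncr1* was at 0 in 4 of 6 libraries. Of the 3 CD4 T cell and Treg markers, *Cd4* (-0.74, limma adjusted p = 0.0384) and *Zbtb7b* (-1.85, limma adjusted p = 0.0095) were called lower, and the list, led by *Foxp3*, summed to 475, 373 and 442 in WT and 373, 350 and 344 in *UTX TCD* libraries. The *Cd4* call was lost with no filter on low values, with libraries scaled to the same sum and in DESeq2 (adjusted p 0.0673, 0.0543 and 0.0573) and without WT 1, WT 2, WT 3, UTX TCD 1 or UTX TCD 3 (adjusted p 0.0989, 0.101, 0.0636, 0.0619 and 0.0796). With a filter at a mean of at least 50, *Ms4a1*, *Csf1r* and *Zbtb7b* were not tested. The part of these cell types in the OAS values was not tested. In sorted cells measured in bulk, fewer cells with a transcript and less of it per cell cannot be told apart.

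By profile over the 6 libraries, the tested genes most like the median centred profile of the members were *Zfp976*, *Nlgn2*, *Nrbp2*, *Eno2* and *Lrig3*, with root mean square differences of 0.0946, 0.108, 0.125, 0.131 and 0.137 on the log2 scale. Their log2 fold changes ran from 2.00 to 2.26, each with no overlap between groups. Both follow from picking these genes for their likeness to the members, so nothing is read from them. *Zfp976*, the closest, had normalized counts of 87.2, 88.9 and 106 in WT and 340, 422 and 377 in *UTX TCD* libraries.

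The members sit in 2 clusters on chromosome 5. The *Oas1* to *Oas3* cluster (chr5:120730333-120921648) spanned 191 kb, and the *Oasl1* and *Oasl2* cluster (chr5:114896926-114937911) spanned 41.0 kb. Within 300 kb of the larger cluster, limma called 0 of 13 neighbouring genes tested, with 2 higher and 2 lower at an unadjusted p under 0.05, and edgeR and DESeq2 also called 0. *Dtx1*, the nearest tested gene on the *Oas2* side, had normalized counts of 46893, 46432 and 47041 in WT and 58387, 58357 and 64092 in *UTX TCD* libraries. Its groups did not overlap, and its log2 fold change of 0.36 (SE 0.05, limma adjusted p = 0.000375) did not pass 0.5. *Ptpn11*, the nearest on the other side, had a log2 fold change of -0.04 (limma adjusted p = 0.490).

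The nearest tested genes on either side of the smaller cluster, *2610524H06Rik* and *2210016L21Rik*, had log2 fold changes of -0.13 and 0.09 (limma adjusted p = 0.258 and 0.291). No tested neighbour of either cluster had a log2 fold change above 0.41, whereas the smallest among the members was the 0.48 of *Oas1c*.

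ATAC-seq reads come from DNA that a transposase could reach and tag, and so mark open chromatin. The authors listed peaks that differed between the genotypes at a false discovery rate under 0.05, each with a mean log2 concentration of normalized reads per genotype and no value per library, so no spread can be given. The differences below are *UTX TCD* minus WT means, and the peaks are 401 bases long. At *Oas1a*, the peak over the annotated promoter (chr5:120907436-120907836) had a mean of 4.33 in WT and 6.51 in *UTX TCD* cells, a difference of 2.18, or 4.53-fold. At *Oas1b*, a peak in exon 6, the last exon (chr5:120823761-120824161), had means of 5.20 and 6.32, a difference of 1.13. Both were weakly open in WT cells beside the median WT mean of 7.69 over all peaks listed. At *Oas2*, the promoter peak (chr5:120749694-120750094) had means of 7.44 and 7.91, a difference of 0.47.

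A peak in the first exon of *Oasl2* (chr5:114897179-114897579) was the most open of the 6, with means of 9.45 and 10.07 and a difference of 0.62. A pair of intergenic peaks assigned to *Oasl1* lay between *Oasl2* and *Oasl1*. The one nearer *Oasl1* (chr5:114916728-114917128) had means of 5.79 and 6.87, a difference of 1.08, and the other (chr5:114914759-114915159) had means of 5.49 and 6.29, a difference of 0.80. No listed peak carried the name of *Oas1c*, *Oas1g* or *Oas3*. A peak that is not listed did not pass the authors' limit, and a listed peak can lie near a member under another gene's name.

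All 6 peaks of members were higher in *UTX TCD* cells, as were 68.8% of all peaks listed, and 5 of the 6 differed by over 0.5, as 49.3% of all peaks listed did in that direction. Nothing is read from these counts. Inside the larger cluster, the other listed peaks were a pair assigned to *Oas1f*, higher by 0.61 and 0.73, and a peak in the last intron of *Oas1e* (chr5:120787094-120787494), with a mean of 7.19 in WT and 6.07 in *UTX TCD* cells, a difference of -1.12. Within 300 kb outside the larger cluster, 10 of 16 listed peaks were higher, with a median difference of 0.47. Within 300 kb outside the smaller cluster, 19 of 22 were higher, with a median difference of 0.64, so the peaks of members were not alone in their direction.

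**Figure D3:**
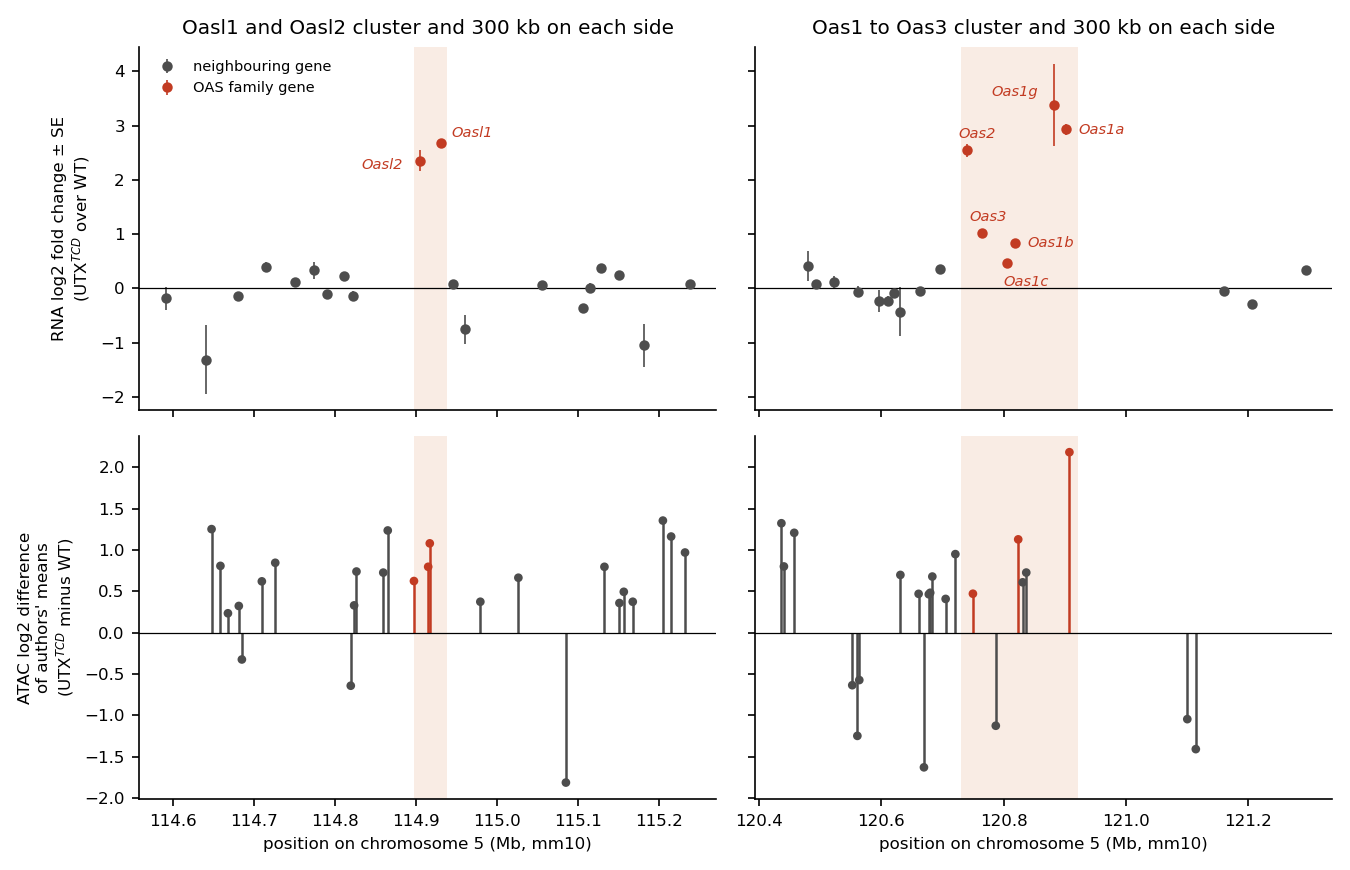
The OAS clusters on chromosome 5 (shaded) with 300 kb on each side, by position in Mb. The upper plots show the RNA log2 fold change of each tested gene with its SE, and the lower plots the difference of the authors' mean log2 ATAC concentrations at each listed peak, with OAS genes and their peaks in red; the promoter peak of *Oas1a* had the largest difference of the member peaks, 2.18.

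Interferon response elements share a core that can be written as GAAA, then any 2 bases, then GAAA. This core was searched on both strands of the RefSeq promoter windows of build GRCm38.p6, which run from 250 bases before to 50 bases after each start. Of the 8 members, 6 had a window, *Oas2* and *Oas1b* not among them. The core was present in 4 of these 6 windows, beside 1131 of 32851 of all windows (3.44%), and the 4 were *Oas1a*, *Oas1g*, *Oas1c* and *Oas3*. The shorter GAAANNGAA was present in the same 4 windows and in 8.56% of all windows. Among the other interferon-stimulated genes, 10 of 24 windows (41.7%) from 18 genes held the core. The 4 windows that held the core are printed. Among their genes, RNA log2 fold changes were 2.93 for *Oas1a*, 1.02 for *Oas3* and 0.48 for *Oas1c*, with *Oas1g* barely detected. The windows of *Oasl1* and *Oasl2* held no core, and these genes had log2 fold changes of 2.68 and 2.36. A link between the core and the transcript levels was not tested. Capitals mark every match to the core on either strand, and where matches overlap they are merged.
Oas1a (chr5:120907476-120907775, minus strand): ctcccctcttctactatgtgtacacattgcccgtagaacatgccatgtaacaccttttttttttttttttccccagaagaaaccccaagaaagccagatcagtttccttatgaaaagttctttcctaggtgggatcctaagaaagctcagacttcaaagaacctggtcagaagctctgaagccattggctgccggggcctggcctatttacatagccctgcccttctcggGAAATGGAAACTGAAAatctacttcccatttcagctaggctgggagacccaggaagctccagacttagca
Oas1g (chr5:120887564-120887863, minus strand): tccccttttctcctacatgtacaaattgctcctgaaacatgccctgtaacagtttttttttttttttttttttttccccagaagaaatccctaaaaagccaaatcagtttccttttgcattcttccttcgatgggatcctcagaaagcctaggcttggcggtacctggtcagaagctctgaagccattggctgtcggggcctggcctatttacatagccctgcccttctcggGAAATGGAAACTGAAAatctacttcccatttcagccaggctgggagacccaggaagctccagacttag
Oas1c (chr5:120812465-120812764, minus strand): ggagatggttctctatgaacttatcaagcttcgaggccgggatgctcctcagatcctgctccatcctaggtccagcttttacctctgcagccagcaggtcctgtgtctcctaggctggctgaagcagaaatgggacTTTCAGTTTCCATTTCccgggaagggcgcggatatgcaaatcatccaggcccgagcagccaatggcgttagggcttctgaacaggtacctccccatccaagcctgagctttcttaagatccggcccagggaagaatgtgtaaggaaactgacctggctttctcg
Oas3 (chr5:120777610-120777909, minus strand): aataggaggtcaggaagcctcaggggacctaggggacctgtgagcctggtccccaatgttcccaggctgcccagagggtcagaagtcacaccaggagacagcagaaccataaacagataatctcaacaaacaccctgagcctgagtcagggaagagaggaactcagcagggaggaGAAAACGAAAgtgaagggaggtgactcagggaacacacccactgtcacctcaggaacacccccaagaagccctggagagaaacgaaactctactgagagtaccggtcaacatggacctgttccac

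In *Oas1a* the matches started 20 and 14 bases before the start of the window's transcript, on the gene's own strand, and overlapped each other. Measured from the annotated start of the gene, the same matches started 1 base before and 5 bases after it. *Oas1g* held the same overlapping pair, 18 and 12 bases before its start, and the windows of *Oas1a* and *Oas1g* were identical at 88.8% of 294 aligned bases. *Oas1c* held an overlapping pair on the opposite strand, 114 and 108 bases before its start. *Oas3* held 1 match, 75 bases before its start. TTCNNNGAA, the palindromic core of the gamma-activated site, was present in 8.30% of all windows and in 1 of the 6, that of *Oas1a*. No match says only that these letters are not in a window, as for *Oasl1* and *Oasl2*.

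The same core was present in 3 of the 6 peaks of members, beside 1645 of the 23907 peaks of the same length on assembled chromosomes (6.88%). The *Oas1a* peak spans the *Oas1a* window's pair. The *Oas2* promoter peak held GAAATCGAAA, 38 bases before the start of the gene. The *Oasl2* peak held GAAAGTGAAA and GAAACAGAAA, 543 and 572 bases after the start of the gene. The peaks of *Oas1b* and *Oasl1* held no match to this core. The shorter GAAANNGAA was present in 4 of the 6 peaks, with 1 of the 2 *Oasl1* peaks added, and in 13.6% of all peaks of this length, and TTCNNNGAA in 1 of the 6, that of *Oas1a*, and in 11.9%. A match describes letters in the reference and not a bound site, and binding of any factor was not tested.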

How the data were processed

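RNA-seq and ATAC-seq of sorted T_prog_ cells covered 3 libraries per genotype and assay. For RNA-seq the authors aligned reads to mm10 with HISAT2 2.2.1, counted them with featureCounts and scaled them by the size factors of DESeq2, so the deposited signal is a normalized count. For ATAC-seq the authors trimmed with cutadapt, aligned with Bowtie2, retained unique alignments with duplicates removed, called peaks with MACS2, compared genotypes with DiffBind and annotated peaks with HOMER, and the deposited values used here are the authors' mean log2 concentrations. The gene annotation, the strand setting, the counting of reads that map to several places and a shift for the transposase are not given in the sources used here. The authors' own comparison columns exist and were not used.

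Whole reads were recovered for 100% of values (tolerance 0.01). Genes with a mean of at least 10 were tested with limma 3.58.1 (two-sided, trend) in R 4.3.3 on log2(normalized count + 1), in a model of genotype alone. On the recovered reads edgeR 4.0.16 called 1529 genes higher and 1012 lower, and DESeq2 1.42.0 called 1462 and 960. Lengths, positions and promoters came from RefSeq (GRCm38.p6, the build of mm10), read with Biopython 1.88 in Python 3.11.15. The members and lists were chosen with earlier results of these data known. Named genes were the members, *Kdm6a*, genes of the short pathway lists, the 5 largest called interferon-stimulated genes, markers, the nearest and the called neighbours, and the 5 genes most alike in profile. Not every gene under this rule is reported. Alternatives covered the pseudocount, the filter, the scaling, the test, the replicate block, the limits of a call, the distances, the motif and each library left out.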

Additional observations from a re-analysis of the deposited data

How the results depend on the processing

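The log2 fold changes of the members kept their sign under every alternative run: 2.84 to 2.99 for *Oas1a*, 0.77 to 0.93 for *Oas1b*, 0.42 to 0.54 for *Oas1c*, 1.98 to 4.71 for *Oas1g* (no value without UTX TCD 2 or with a mean of at least 50), 2.38 to 2.66 for *Oas2*, 0.95 to 1.08 for *Oas3*, 2.64 to 2.76 for *Oasl1* and 2.10 to 2.49 for *Oasl2*. The members past 0.5 numbered 6 to 8. The same 22 interferon-stimulated genes were called in every fit.

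With no limit on the fold change, the calls over all genes were 2924 higher and 2963 lower, 2 partners were higher, 1 receptor or kinase gene was higher and 4 lower, 2 inhibitors were lower and, of the neighbours of the larger cluster, 2 were higher and 1 lower. With a fold over 1.5, or libraries scaled to the same sum, 1 receptor gene was lower. The paralog *Oas1e* gave 0 calls with no filter, with a mean of at least 50 and in DESeq2. Among neighbours of the larger cluster, 1 was higher with no filter, and 2 within 1000 kb. With a limit of 1 on the ATAC difference, 3 member peaks passed. Beyond the limits and filters themselves, the cause was not tested.

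Leaving out each library in turn gave 1325 to 1549 calls higher and 837 to 1023 lower over all genes, 0 to 1 for the paralogs and 1 to 2 receptor genes lower. The sign turned, with no call, for *Pde12* without UTX TCD 3 (range over left-out libraries -0.018 to 0.093), *Ifnar2* with same-sum scaling (0.032) and without WT 3 (range -0.091 to 0.0047), and *Ptpn11* with same-sum scaling (0.018). With the replicate block, 1484 genes were higher and 990 lower, but libraries share only a number: centred profiles of same-numbered libraries correlated at 0.31, -0.20 and 0.09, and WT 3 with UTX TCD 2 at 0.29. With 61512402 reads, UTX TCD 1 limits what can be seen of *Oas1g*, where 3 reads equal 6.75 normalized counts.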
